A study of Homo sapiens with 8 samples.

Results

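N1-methyladenosine (m1A) immunoprecipitates from neuroblastoma cells, 4 libraries in all, were compared over joined regions, stretches of the genome in which listed m1A positions lay no more than 200 nt from the next one. Of 8005 joined regions, 272 (3.40%) had listed reads in 3 or 4 of the 4 libraries, and these 272 regions are described here. They held 774 listed positions in 259 genes, counting for each region the gene with the most deposited lines. The regions were chosen by the same read counts that are given below, so the counts and the ratios made from them are descriptions and not independent evidence. The libraries with silenced TRMT6 came from cells transfected with small interfering RNA against TRMT6 (siTRMT6, 2 libraries), and the reference libraries came from cells labelled control (2 libraries), whose transfection the labels do not describe. The cells are called SK-N-AS in the source and cell line fields and SK-N-BE in the sample titles; both are established neuroblastoma lines, and which of them was used could not be settled here. All 4 libraries were made from polyadenylated RNA, fragmented and pulled down with an antibody against m1A. The labels do not say whether replicates were separate cultures, so a p-value here reflects how far these libraries lie apart, and that distance may be technical.

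N1-methyladenosine is a methyl group on the face of adenine that pairs with uracil, so it disturbs base pairing and is known to stop or mislead reverse transcriptase. TRMT6 is the partner without catalytic residues in a complex with the methyltransferase TRMT61A, which makes m1A in the T-loop of cytosolic tRNA and in mRNA stretches that resemble it. In mRNA, m1A has been described near start codons and in 5' UTRs, and mitochondrial transcripts carry m1A made by other enzymes. The level of the TRMT6 transcript was not analysed here, so the silencing itself was not checked.

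Listed bases could be read for 46 positions of 19 of these regions, those that fell in RefSeq promoter windows (250 bases before to 50 bases after a gene's start, GRCh38.p14) of the same gene and strand. On the forward strand of the genome the listed base was A at 100% of them, also where the gene lies on the reverse strand. In the sense of the annotated gene, the listed base was therefore A at all 3 positions of GMPR2, the only forward-strand gene. It was T (U in RNA) at all 43 positions of the 18 genes on the reverse strand. At or after the RefSeq start of the gene lay 0 of the 3 and 22 of the 43. The others lay before it, although the deposited annotation gives each a transcript region. Among these others are the listed bases of STC2, RHOA, FBXW4 and GMPR2 printed below. Over all 396 readable listed positions, 69 of 69 on forward-strand genes were A and 327 of 327 on reverse-strand genes were T. These regions thus did not stand apart from the rest in this respect. A T is no adenosine, so at these reverse-strand positions the listed base itself cannot be m1A of the annotated transcript. Bases outside the promoter windows were not read, so whether this holds for other reverse-strand genes below is unknown. Among these are IGF2, POM121C, MDC1, KMT2D, SFPQ, MYH10, KIAA0930, PCDH1, REPS1, C19orf47, ANTXR2 and the 3' UTR region of STC2. LONP1, also named below, was read and had T at each listed base. The sequences below are given 5' to 3' in the sense of the annotated gene, with every listed base in capitals, and they are shown because they place the bases of different libraries side by side.
SCAMP3, chr1:155262334-155262356, reverse strand: tcgtcttagcTTTtggacaagac
STC2, chr5:173328499-173328522, reverse strand: ggtctcggatTggTccagccgccg
RHOA, chr3:49412081-49412109, reverse strand: gggctccTgagcaaTagtggaTgagctgt
FBXW4, chr10:101695194-101695222, reverse strand: agggcTcggcccgcgccgccccaTgtgac
GMPR2, base listed in siTRMT6 1, chr14:24232479-24232499, forward strand: catccagtttAgcaacagcag
GMPR2, base listed in siTRMT6 2, chr14:24232462-24232482, forward strand: cgtaaattggAatgaggcatc
GMPR2, base listed in control 2, chr14:24232492-24232512, forward strand: aacagcagagAtgacgactct

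In SCAMP3, which encodes a membrane protein of vesicle traffic, 3 libraries listed 3 neighbouring bases. The base at 155262346 had 13 reads in siTRMT6 1, that at 155262344 had 9 in siTRMT6 2, and the base between them had 12 in control 1. Control 2 had no listed read there. STC2 is the gene of the secreted glycoprotein stanniocalcin 2, and its listed bases, annotated as 5' UTR, lay before the RefSeq start. Both siTRMT6 libraries listed the same base there, with 12 and 9 reads, and control 2 had 13 reads 3 nt away. The letters GTTCNA, the core of the T-loop around the adenosine that TRMT6 and TRMT61A methylate in tRNA, were looked for on both strands in the 21 bases around each listed base. They occurred in 0 of 45 such windows of these regions (which allows a share of up to 6.67%), in 5 of 324 windows of other joined regions and in 1.68% of 21-base stretches of all RefSeq promoter windows. The longer form GTTCNANNC, which contains GTTCNA, occurred in 0 of 45, in 3 of 324 and in 0.349%. These windows all lie near gene starts, and no sequence was read for the other regions.

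The libraries differed in how much they listed. Over the whole table siTRMT6 1 had 40771 reads at 3607 positions and siTRMT6 2 had 13812 at 1414, while control 1 had 8655 at 819 and control 2 had 46007 at 4269. These totals cover listed positions only and are not sequencing depths, which are unknown here. A deposited 0 may stand for no reads or for no call, and no source says which. Of the 272 regions, siTRMT6 1 had reads in 244 and siTRMT6 2 in 198, against 146 for control 1 and 241 for control 2. The regions took 8.59% and 14.1% of the listed reads of the siTRMT6 libraries, and 21.8% and 8.06% of those of the controls. The groups overlapped: the mean share was 11.3% with siTRMT6 and 14.9% in controls, a difference of -3.59 percentage points (exact permutation test over 4 libraries, two-sided p = 1; 2 against 2 libraries cannot give a p below 0.33). Without control 1 the difference was 3.28 points in the other direction. The regions were chosen by these same counts, so the test cannot decide between the conditions. The share fell as the number of listed positions rose, from control 1 through siTRMT6 2 and siTRMT6 1 to control 2. The part of list length in the difference was not tested.

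In 13 of the 272 regions all 4 libraries had reads, so no library is missing from their ratios. The highest counts were in MT-CO2, which encodes a subunit of cytochrome c oxidase in mitochondrial DNA: 221 and 144 reads in the siTRMT6 libraries and 220 and 193 in the controls, between positions 7987 and 8103. CALM3, one of the genes for the calcium sensor calmodulin, had 30 and 21 reads with siTRMT6 and 23 and 28 in controls in its 3' UTR on chromosome 19, and a non-coding RNA on the opposite strand was also listed there. In both, siTRMT6 1 had the highest count and siTRMT6 2 the lowest, so the control values lay between those of the siTRMT6 replicates.

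POM121C, a nuclear pore gene, had 23 and 15 reads with siTRMT6 and 17 and 19 in controls in its coding sequence on chromosome 7. LARP1, which binds the start of mRNAs for the translation machinery, had 19 and 13 reads with siTRMT6 and 15 and 20 in controls between 154802257 and 154802298 on chromosome 5. FSCN1, whose product fascin bundles actin, had 15 and 9 reads with siTRMT6 and 13 and 18 in controls in its coding sequence. Here too siTRMT6 2 was the lowest library and the groups overlapped.

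GATAD2A, a subunit of the NuRD chromatin complex, had 16 and 9 reads with siTRMT6 and 12 and 16 in controls in its 3' UTR. CTCF, the insulator protein that organises chromatin loops, had 12 and 8 reads with siTRMT6 and 9 and 11 in controls. TPX2, a spindle assembly factor, had 10 and 8 reads with siTRMT6 and 10 and 14 in controls. CTCF had the same sum in both conditions, and TPX2 had the lowest ratio of the 13.

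The other 5 regions had at most 12 reads in any library. NIT1, an amidase gene, had 11 and 7 reads with siTRMT6 and 9 and 12 in controls. SDHA, a subunit of succinate dehydrogenase, had 11 and 6 with siTRMT6 and 9 and 11 in controls. MYH10, a non-muscle myosin heavy chain, had 10 and 8 with siTRMT6 and 9 and 10 in controls. In each of these the control counts lay within or just above the siTRMT6 range. TARS, a threonyl-tRNA synthetase gene, had 9 and 6 with siTRMT6 and 8 and 7 in controls, and CHD7, a chromatin remodeller, had 7 and 6 with siTRMT6 and 6 and 7 in controls, so their sums were equal. Over the 13 regions the log2 ratio of summed siTRMT6 reads to summed control reads, with each sum divided by its condition's total over all listed positions, ran from -0.41 to 0.08 with a median of -0.13. The sum was higher with siTRMT6 in 1 region, equal in 4 and lower in 8. SiTRMT6 2 had the lowest or a tied lowest count in 13 of 13, and siTRMT6 1 exceeded it in 13 of 13, so the replicates of 1 condition differed in a fixed direction.

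**Figure D1:**
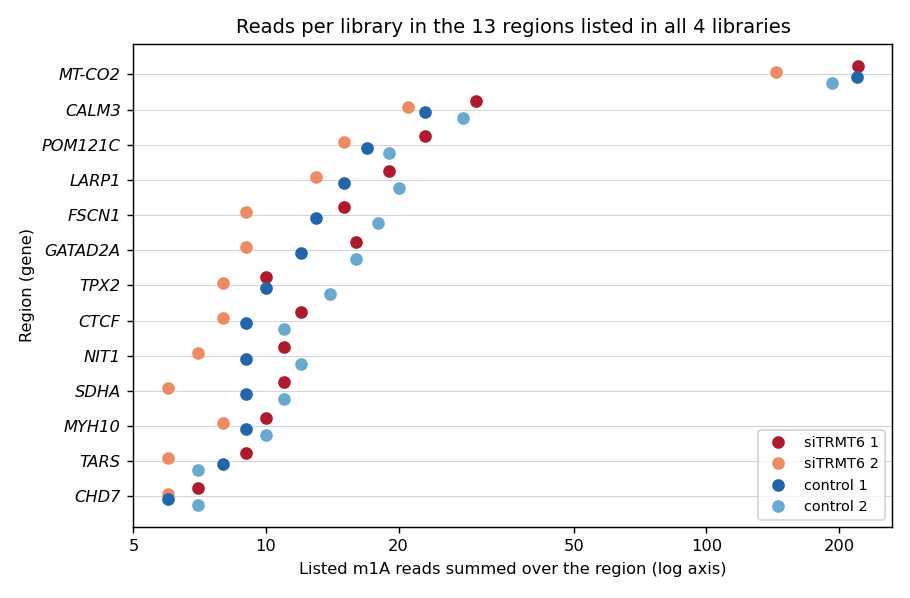
Reads per library (horizontal log axis, summed over the region) in the 13 regions with listed reads in all 4 libraries, 1 row per region; red and orange points are the siTRMT6 libraries and dark and light blue points the controls. In each row siTRMT6 2 is the lowest or tied lowest, and siTRMT6 1 reaches or exceeds the lower control in every row.

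Counts of pairs of libraries were then set side by side over all 272 regions, the 13 included. Where both siTRMT6 libraries had reads, siTRMT6 1 was higher in 170 of 170 regions, with a median ratio of 1.57 to siTRMT6 2 (1.13 to 2.22). Control 1 was lower than control 2 in 89 of 115 regions, higher in 7 and equal in 19, with a median ratio of 0.826. Between conditions, siTRMT6 1 had a median ratio of 0.929 to control 2 over 213 regions and of 1.17 to control 1 over 118. SiTRMT6 2 had a median ratio of 0.583 to control 2 over 167 regions and of 0.75 to control 1 over 72. The ratio of all listed reads was near that of the regions for siTRMT6 1 to control 2, at 0.886. It lay farther away for the other 5 pairs, among them 2.95 for siTRMT6 1 to siTRMT6 2, 0.188 for control 1 to control 2 and 0.300 for siTRMT6 2 to control 2.

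Within each pair of libraries the counts lay closer to 1 ratio than counting noise allows for independent reads. The chi-square of the counts over its degrees of freedom was 0.133 for the siTRMT6 pair and 0.255 for the control pair, and between 0.112 and 0.204 for the 4 pairs of different conditions. A value near 1 would be counting noise alone. Where both had reads, replicates of both conditions thus differed by less than the sampling noise. So did libraries of different conditions, although they mostly listed different bases. No mean and SD over replicates is therefore given, and each library's count is shown. Pearson's r of the log2 counts across regions ran from 0.912 to 0.976 in the 6 pairs; regions are not independent replicates, and all are positions selected by the authors. In regions with 2 libraries the chi-square over its degrees of freedom was likewise 0.0953 to 0.286.

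**Figure D2:**
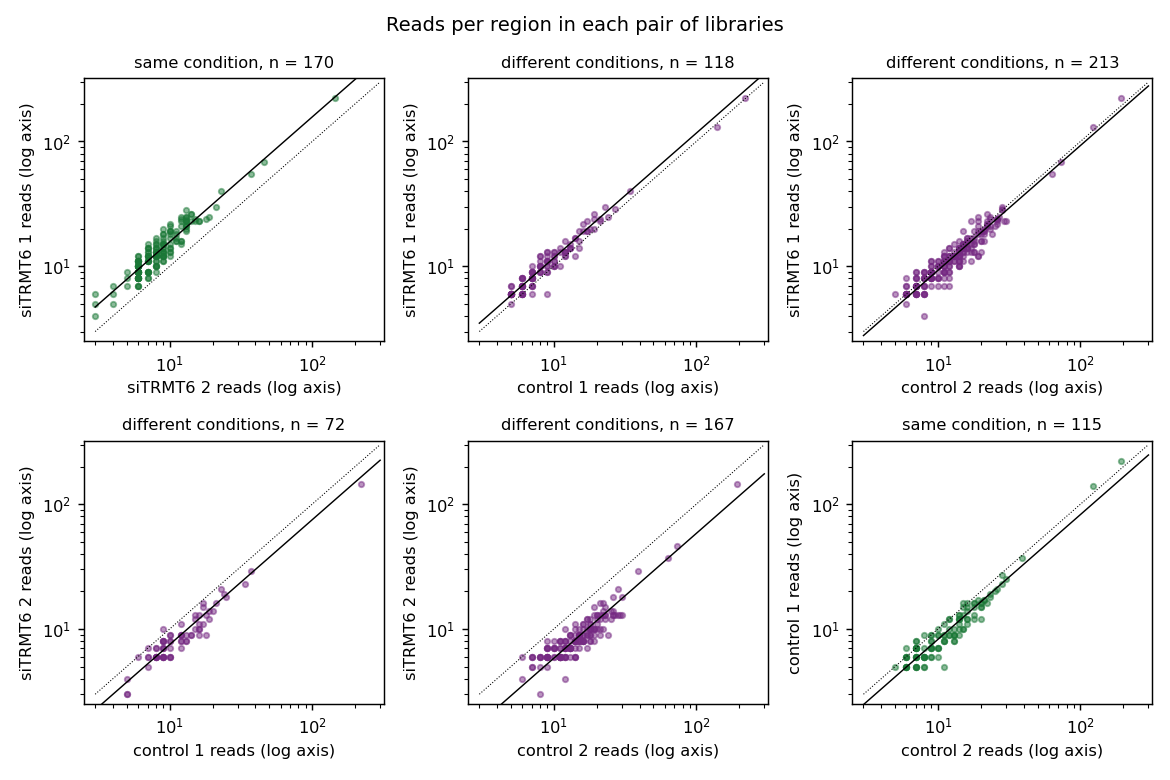
Reads per region in 1 library against another (log axes, 1 point per region among the 272 with reads in both), for each of the 6 pairs; the solid line is the median ratio and the dotted line equal counts. Points follow the solid line in pairs of the same condition (green) and of different conditions (purple), and every region lies above the dotted line for siTRMT6 1 against siTRMT6 2.

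The ratio of siTRMT6 to control reads in a region went with which library was absent. Over all 272 regions the scaled log2 ratio ran from -1.92 to 1.36, with a median of 0.41 and quartiles of -0.98 and 0.68. The regions without a read in siTRMT6 1 (28 regions) had a median of -1.64 (-1.92 to -1.17), and those without siTRMT6 2 (74) had a median of -0.998 (-1.50 to -0.63). Those without control 1 (126) had a median of 0.60 (-0.19 to 1.22), and those without control 2 (31) had a median of 0.90 (0.59 to 1.36). In 257 of the 259 regions with 3 libraries, the sign was the one that the absent library gives. INF2 and ANTXR2, both without control 1, were the exceptions, with log2 ratios of -0.12 and -0.19. A region with 3 libraries sums both libraries of 1 condition against a single library of the other. With counts as alike as in the pairs above, the sign follows largely from that sum and is no independent result. With control 2 left out the median was -2.39 over the 146 regions that kept reads in both conditions. With siTRMT6 1 left out it was 1.17 over 198 such regions. Each condition was then scaled by the listed reads of its remaining libraries. The median thus rests on which libraries, and with them which regions and totals, are counted.

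**Figure D3:**
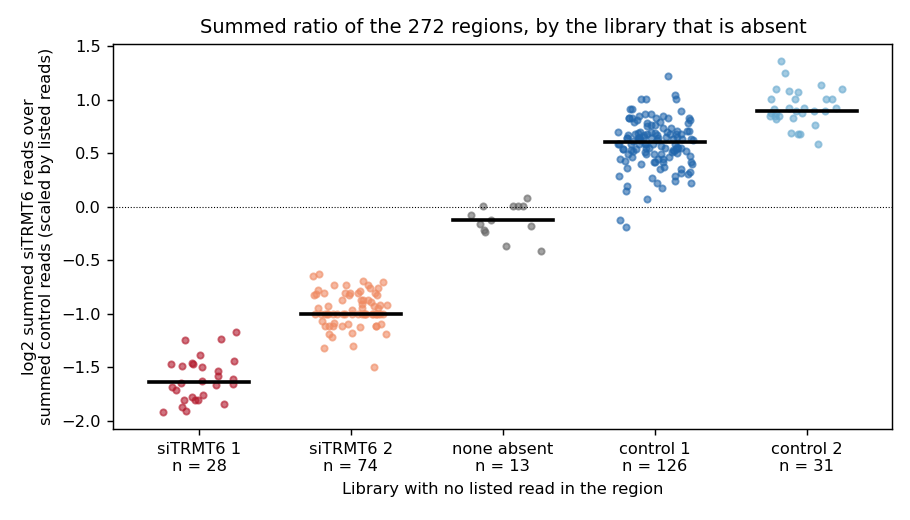
Scaled log2 ratio of summed siTRMT6 reads to summed control reads (vertical axis), 1 point per region, grouped by the library that had no listed read; black bars are medians. The groups run from a median of -1.64 without siTRMT6 1 to 0.90 without control 2, and the 13 regions with no library absent lie between -0.41 and 0.08.

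Of the 272 regions, 16 had a ratio of at least 2-fold higher and 46 of at least 2-fold lower with siTRMT6, against 1.16% higher and 5.02% lower among all 1374 joined regions that held both conditions. All 16 lacked a control library and all 46 lacked a siTRMT6 library, and since the choice of regions with 3 or 4 libraries used these counts, nothing is read from the shares. Regions with 1 library of each condition, 1102 in number, had a median log2 ratio of -0.17 (quartiles -0.41 and 0.0021). The level of another library in these regions is also given by the library that was absent. A region that lacks a library had to have reads in all the others to be chosen. The choice therefore shapes these medians too, and nothing is read from them. The 126 regions without control 1 had a median of 14 reads in control 2, and 25 of them had 20 or more, while the 115 regions with control 1 reads had a median of 11 in control 2. The 74 regions without siTRMT6 2 had a median of 9 reads in control 2, and the 167 regions with reads in both siTRMT6 2 and control 2 had a median of 14 in control 2.

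All joined regions of the table were tested with edgeR's quasi-likelihood test of siTRMT6 against control. Of 492 regions that passed the filter on low counts, 0 were called at an adjusted p below 0.05 (0%), with 126 at an unadjusted p below 0.05, and DESeq2 called 1. Of the 272 regions here 130 passed the filter, and 0 of them were called by edgeR (lowest unadjusted p = 0.563, lowest adjusted p = 0.999923) or by DESeq2. The region called by DESeq2 was MT-ND6, which had reads in 2 libraries. The 272 regions were chosen by these same counts, and a region with reads in only 1 condition could not be among them. The absence of calls among them is thus a description, here and for the lists and genes below. The p-values do not show that m1A was the same in both conditions. The common dispersion of the fit was 4.54, the square of the coefficient of variation between libraries. The median fitted log2 of the tested regions of this set was -0.06 without control 1 (221 regions) and -0.11 without control 2 (145). It was 0.20 without siTRMT6 1 (140) and 0.60 without siTRMT6 2 (243). Each of these fits leaves 1 library in a condition. A region chosen without that library then has no reads in the condition, so no p-value is given for these fits.

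Single positions differed by more than summed regions. In the authors' deposited table, 412 of the 774 positions were listed as up and 362 as down with siTRMT6, beside 49.6% up and 50.4% down over all 9962 positions. The absolute log2 fold change of the single positions had a median of 4.40 (lowest 1.35, highest 8.97) in the authors' deposited table. Summed over a region and set on the same scale, the absolute log2 had a median of 0.66 and a maximum of 2.10. Of the 272 regions, 267 held positions of both directions, against 99.2% of all joined regions with both conditions, so the share here is near the background.

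**Figure D4:**
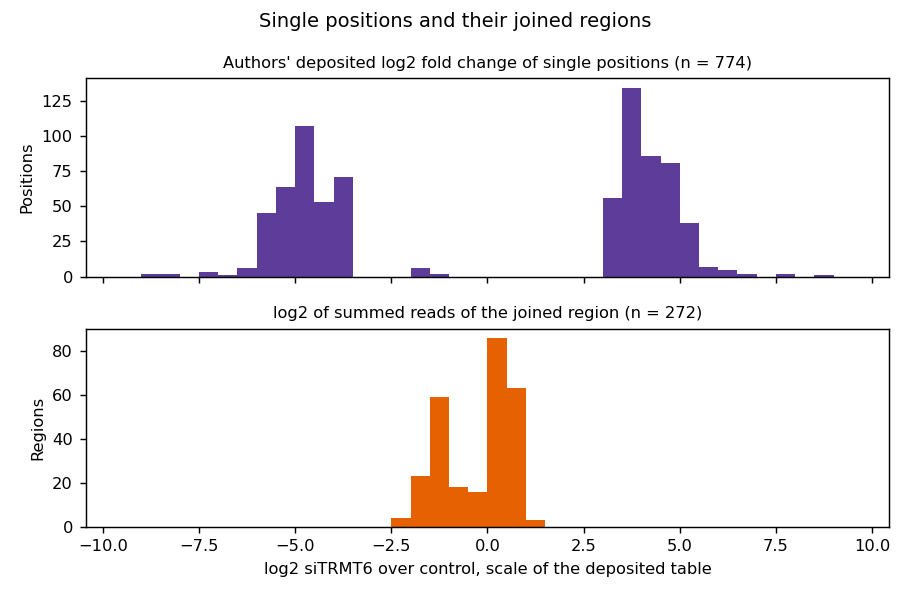
Number of positions by their log2 fold change in the authors' deposited table (top, n = 774) and number of joined regions by the log2 of their summed reads on the same scale (bottom, n = 272). No position lies closer to 0 than 1.35, and the summed regions lie between -2.10 and 1.17. Only positions that passed the authors' p-value are listed, so the empty stretch around 0 in the top panel follows from that choice.

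EIF5A, a translation factor that carries the amino acid hypusine, is an example. Its coding base 7309746 on chromosome 17 had 27 and 28 reads in the controls and none in siTRMT6, and the base 7309751 had 29 reads in siTRMT6 1. The authors' deposited table gave log2 fold changes of -6.97 and 5.67 for these bases, and the summed log2 on the scale by listed reads was -0.92. In CALM3 the authors' deposited table gave 5.21 and 5.72 for the bases of the siTRMT6 libraries, and -5.71 and -5.99 for those of the controls. The summed reads of CALM3 were equal in both conditions.

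The 5 regions with 1 listed base were the ones with 1 direction: GAS8, ATP5D, KHDRBS1, REPS1 and RBBP4. All 5 had reads in siTRMT6 2 and in both controls at that base, and none in siTRMT6 1. KHDRBS1, a splicing regulator also called SAM68, had 0 and 8 reads with siTRMT6 and 9 and 9 in controls. RBBP4, a histone-binding protein of several chromatin complexes, had 0 and 5 with siTRMT6 and 7 and 7 in controls. Each library had at most 1 listed base in any joined region.

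The bases that different libraries listed in a region lay close together, as far as the 200 nt limit allows a statement. The regions spanned a median of 34.5 nt (1 to 290). Between libraries of the same condition the median distance was 19 nt over 285 pairs, with 47 pairs at the same base. Between libraries of different conditions it was 18 nt over 570 pairs, with 15 at the same base. The lower number of identical bases between conditions is no result, because the deposited table lists only bases that passed the authors' p-value for a difference between conditions. Just inside the limit, the non-coding gene CTC-273B12.8 had bases 200 nt apart, with 17 and 8 reads in siTRMT6 and 0 and 16 in controls. Just outside, bases of PIK3R2 at a gap of 213 nt had together 12 and 7 reads in siTRMT6 and 0 and 12 in controls.

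By transcript region, 171 of the 272 lay in coding sequence (62.9%, 95% Wilson interval 57.0 to 68.4), 54 in 3' UTRs (19.9%), 37 in 5' UTRs (13.6%, 10.03 to 18.2) and 10 in non-coding RNA (3.68%). Other joined regions had 64.8% in coding sequence, 20.4% in 3' UTRs, 11.03% in 5' UTRs and 3.83% in non-coding RNA, within these intervals. Intervals here cover counting error only, and regions of 1 gene are not independent. None of the 37 regions in 5' UTRs had all 4 libraries. Their median log2 ratio was 0.68, beside 0.27 in coding sequence, 0.30 in 3' UTRs and -0.75 in the 10 regions of non-coding RNA (4 above 0 and 6 below), and these values too carry the pattern of absent libraries.

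Genes on the forward strand of the genome held 203 of the regions (74.6%, 69.1 to 79.4), reverse-strand genes 54 (19.9%), and 15 regions were listed on both. Among other joined regions 71.7% were on forward-strand genes, whereas 50.7% of RefSeq genes with a promoter entry lie on that strand. Intervals of the 5' UTR share did not overlap between strands. On the reverse strand 24 of 54 regions were in 5' UTRs (44.4%, 32.0 to 57.6) and on the forward strand 12 of 203 (5.91%, 3.41 to 10.05). Other joined regions had 25.4% (23.5 to 27.4) on the reverse strand and 5.53% on the forward strand. The part of the listed base's strand in these shares was not tested.

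**Figure D5:**
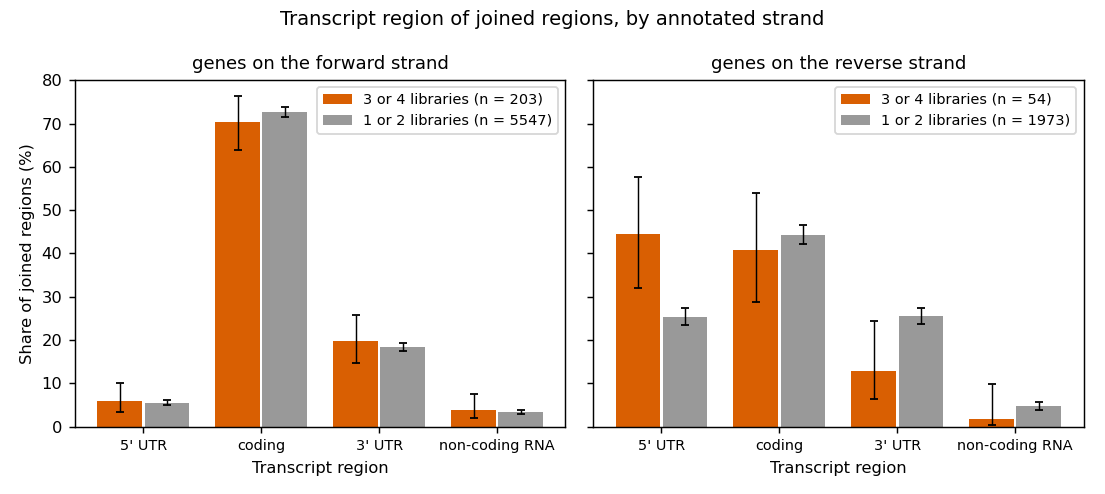
Share of joined regions (vertical axis, percent) by transcript region, for genes on the forward strand (left) and on the reverse strand (right); orange bars are regions with 3 or 4 libraries, grey bars regions with 1 or 2, and error bars are 95% Wilson intervals. On the reverse strand 44.4% of the orange regions are in 5' UTRs, against 5.91% on the forward strand.

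Genes of translation were among the regions with most reads. Of 88 listed genes of the translation list, 17 had such a region (19.3%). The share was 16.4% for the RNA-processing list, 15.9% for the chromatin list and 5.64% for all 4945 listed genes. For the last share every gene listed in a region was counted, 279 genes in all. Transcript abundance was not analysed here, and its part in these shares was not tested. The 19 regions of the list had 8 ratios above 0 and 11 below, with a median log2 of -0.92, against 0.41 over the 272. In 10 of the 19 a siTRMT6 library was absent and in 8 a control. Of the 19, 14 were tested by edgeR and 0 called.

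RPS3, a protein of the small ribosomal subunit, had 23 and 16 reads with siTRMT6 and 21 and 0 in controls. RPL36, of the large subunit, had 23 and 14 with siTRMT6 and 0 and 26 in controls in its 3' UTR. RPS24 was at the other end of the range, with 0 and 8 reads in siTRMT6 and 13 and 15 in controls. In the first 2 the zero stood in a control library and in RPS24 in siTRMT6 1. RPL19 had 2 regions on chromosome 17, with 19 and 0 reads in siTRMT6 at 39201299 to 39201307 and 0 and 16 at 39202397 to 39202418, while the controls had 17 and 21 in both. RefSeq names 21 pseudogenes after RPL19, 20 after RPL36 and 20 after RPS24, so reads of such genes may be shared with copies; 61 of the 259 genes have at least 1 pseudogene of that kind.

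Among RNA-processing genes 10 of 61 listed genes had a region with 3 or 4 libraries, with 6 ratios above 0 and 4 below. MALAT1, a nuclear non-coding RNA of splicing speckles, had 55 and 37 reads with siTRMT6 and 0 and 63 in controls. HNRNPA1, a splicing repressor, had 0 and 29 reads with siTRMT6 and 37 and 39 in controls, with 75 pseudogenes in RefSeq. SFPQ and NONO, partner proteins of paraspeckles, had 24 and 15 reads (SFPQ) and 24 and 18 (NONO) with siTRMT6, against 0 and 23 (SFPQ) and 0 and 26 (NONO) in controls. SRRM2, a scaffold of speckles, had 26 and 14 with siTRMT6 and 0 and 22 in controls. Apart from HNRNPA1, control 1 was the absent library in each of these. Control 2 lay between the siTRMT6 libraries in SFPQ and SRRM2 and above both in MALAT1 and NONO.

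Chromatin genes supplied 11 of 69 listed genes, with 6 ratios above 0 and 5 below, where the equal sums of CTCF and CHD7 count as above because the condition totals differ slightly. GSE1, a component of a corepressor complex, had 23 and 13 reads with siTRMT6 and 0 and 30 in controls, and KMT2D, a histone H3 lysine methyltransferase, had 25 and 13 with siTRMT6 and 0 and 27 in controls. BRD2, which binds acetylated histones, had 20 and 0 with siTRMT6 and 19 and 23 in controls in its 5' UTR, where a transcript on the other strand was listed too. ARID1B, a SWI/SNF subunit, had 19 and 0 with siTRMT6 and 16 and 15 in controls. Control 1 was absent in GSE1 and KMT2D and siTRMT6 2 in BRD2 and ARID1B. EED, a Polycomb subunit, had the highest ratio of the list (log2 1.22), from 8 and 6 reads in siTRMT6 and 0 and 6 in controls.

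Markers of the adrenergic state of neuroblastoma were listed for 21 of 25 genes. Of these, 2 (9.52%) had a region with 3 or 4 libraries, beside 5.64% of all listed genes. IGF2, a fetal growth factor, had 68 and 46 reads with siTRMT6 and 0 and 73 in controls in its 3' UTR on chromosome 11. GATA3, a transcription factor of the sympathetic lineage, had 25 and 12 with siTRMT6 and 0 and 23 in controls in its 5' UTR. In both, control 1 had no listed read, and control 2 lay above the siTRMT6 libraries in IGF2 and between them in GATA3. Of 15 mesenchymal markers 5 were listed and 0 had such a region, and none of the 5 Schwann or glial, 3 endothelial and 3 blood markers was listed. Of 14 m1A enzymes and readers 7 were listed and 0 had such a region. With so few listed genes, these counts cannot be told apart from the share of all listed genes, and no difference between the lists is read from them.

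The most read of the other regions were MT-RNR2, the large ribosomal RNA of mitochondria, with 131 and 0 reads in siTRMT6 and 140 and 122 in controls, and EMILIN1, an extracellular matrix glycoprotein, with 40 and 23 in siTRMT6 and 34 and 0 in controls. MYL6, a myosin light chain, had 0 and 18 with siTRMT6 and 25 and 30 in controls within 9 nt. MAPK8IP2, a scaffold of the JNK pathway in neurons, had 28 and 13 with siTRMT6 and 0 and 28 in controls. MDC1, a DNA damage mediator, had 25 and 19 with siTRMT6 and 24 and 0 in controls. In each of these, 1 replicate had no listed read where its partner had between 18 and 131.

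The highest nuclear ratios were those of STC2 in its 3' UTR (log2 1.36, with 13 and 10 reads in siTRMT6 and 9 and 0 in controls), GGA1, EED, CCT7 and LONP1, with SIK2 tied with LONP1 (log2 1.10). GGA1 sorts cargo at the Golgi, CCT7 is a subunit of the chaperonin that folds actin and tubulin, and LONP1 is a mitochondrial protease. The lowest were RAB1B, CTD-2540B15.13 with LRP3, KIAA0930, CCDC85C with CCNK, and RPS24, from -1.92 to -1.81, with PLK1 and C19orf47 tied with RPS24. RAB1B, a GTPase of traffic from the endoplasmic reticulum, had 0 and 9 reads with siTRMT6 and 16 and 18 in controls. All of these lowest regions lacked siTRMT6 1, and the highest lacked control 2, EED being the exception, which lacked control 1. EED did not pass the filter on low counts, and none of the others that passed it was called by edgeR (lowest adjusted p = 0.999923).

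Of the 259 genes, 13 had 2 of the regions: SAFB, FLYWCH2, CENPF, MYBL2, EIF4BP6, RPL19, GTF2I, SPEG, FSCN1, HOXC4, PCDH1, LARP1 and STC2. In 7 of them the absent library differed between the regions, and in 6 it was the same. FLYWCH2 had log2 ratios of -0.92 in its coding sequence (10 and 0 reads in siTRMT6, 8 and 11 in controls) and 0.68 in its 3' UTR (10 and 6 in siTRMT6, 0 and 10 in controls). GTF2I, a general transcription factor, had -0.998 in its coding sequence and 0.32 in its 3' UTR. LARP1 had -0.13 in coding sequence and -1.68 in its 3' UTR, where siTRMT6 had 0 and 14 reads and the controls 20 and 25. FSCN1 had -0.37 in coding sequence and -0.97 in its 3' UTR, where siTRMT6 had 24 and 0 reads and the controls 21 and 26. Within these genes the ratio differed with the library that was absent, which follows largely from the summing, as over the whole set.

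The transcription factor gene HOXC4 had the same counts in both of its regions on chromosome 12, 11 and 6 in siTRMT6 and 0 and 11 in controls. The pseudogene EIF4BP6 had 6 and 0 in siTRMT6 and 5 and 7 in controls in both of its regions on chromosome 7. Of the 259 genes, 172 had a further joined region with 1 or 2 libraries, 473 in all, and 87 had none. SPTBN1, a spectrin of the membrane skeleton, had the most, with 14. The same counts over all listed genes are not given here. Neither these counts nor the number of genes with 2 regions is therefore read as a trait of the set.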

How the data were processed

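m1A immunoprecipitates of 2 siTRMT6 and 2 control libraries were analysed from 1 table of 25539 lines and 9962 positions; input libraries are not used here. The submitters' processing notes name FastQC 0.11.3, STAR and hg38. How positions were called and counted is not given in the sources used here. The deposited table held, per the file headers, counts for each position with the authors' log2 fold change and p-value, raw and adjusted. Names of the count columns fit input and m1A libraries alike; they were read as m1A, since the table is of m1A sites. The authors' log2 fold change equalled the log2 of the summed counts (a sum of 0 replaced by 0.5) divided by 1.14. Positions are given counting from 1: with 1 added to the deposited number the forward-strand base was A at 100% of 396 readable positions, and without it at 6.57%.

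Positions no more than 200 nt apart were joined on both strands together and counts summed. Members and gene lists were chosen with earlier results of these data known. edgeR 4.0.16 under R 4.3.3 was fitted over all joined regions, with DESeq2 1.42.0 as an alternative. The edgeR settings were TMM, filterByExpr with a minimum count of 10, the quasi-likelihood test and Benjamini-Hochberg adjustment. It was also run on simulated counts with equal library sizes and far less spread between libraries than here. That run does not show how the test behaves on these data. A region's gene and transcript region were those of most deposited lines. Gene symbols matched RefSeq for 265 of 272 regions. Named were all regions with 4 libraries, the 10 others with most reads, the 5 highest and 5 lowest nuclear ratios, genes with 2 regions, and up to 5 members per list; GAS8, ATP5D, REPS1, RBBP4, INF2, ANTXR2, SIK2, C19orf47, PLK1, CTC-273B12.8, PIK3R2, SPTBN1 and genes with printed sequences were added after their values were seen. Replicate numbers were not used to pair libraries, since the labels tie them to no batch.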

Additional observations from a re-analysis of the deposited data

How the results depend on the processing

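The number of regions with 3 or 4 libraries was 196, 246 and 317 at gaps of 50, 100 and 500 nt, 280 when strands were joined separately, and 147 when a library needed 8 reads or more. With 1 library left out, 41 to 139 regions kept reads in all 3 others. The median log2 ratio was 0.41. It was -0.43 when each library was scaled by its own listed reads and 0.22 on the authors' scale. With 1 library left out it ran from -2.39 to 1.17, over the 146 to 244 regions that kept both conditions. The cause was not tested. The difference in the share of listed reads, -3.59 points, was 3.28 without control 1 and -10.5 to 3.28 over the 4 libraries left out in turn. Coding sequence held 63.2% of the regions when weighted by reads and 66.4% of 235 regions with 1 label. Calls by edgeR stayed at 0 under each scaling, without the filter (0 of 8005, 216 at an unadjusted p below 0.05), at other gaps and with each library left out (0 to 0), and DESeq2 called 1. The median fitted log2 of the 130 tested regions was 0.80 with TMM and 0.64 with DESeq2 size factors, beside 0.15 and 0.04 over all 492. With the replicate number as a block, edgeR called 0 of 492. Same-numbered deviations correlated at -0.26 over 492 regions, and with crossed numbers, an alternative chosen after seeing the data, edgeR also called 0. Gaps of 100 and 500 nt for the deposited directions and distances, and the positions at or after a RefSeq start, were also added after seeing the data. The unknown depth and the unknown meaning of a deposited 0 limit all ratios.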

Other observations

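Genes of cell division and of neurons, picked after their values were seen, were also among the regions with 3 libraries. CCND1, which encodes the cyclin that drives entry into the cell cycle, had 21 and 12 reads with siTRMT6 and 0 and 25 in controls in coding sequence. PLK1, a mitotic kinase, had 0 and 8 with siTRMT6 and 12 and 16 in controls. CENPF, a kinetochore protein, had 12 and 9 with siTRMT6 and 0 and 13 in controls in 1 of its regions. Control 1 was the absent library in CCND1 and CENPF, and siTRMT6 1 in PLK1. NEFH, the heavy neurofilament subunit, had 21 and 10 with siTRMT6 and 0 and 19 in controls. NCAM1, a neural adhesion molecule, had 16 and 12 with siTRMT6 and 0 and 21 in controls, and UNC5A, a netrin receptor, had 17 and 0 with siTRMT6 and 14 and 16 in controls. CENPF did not pass the filter on low counts, and edgeR called none of the other 5.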
